A study of Schizosaccharomyces pombe with 15 samples.

Results

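The ends of U6 small nuclear RNA were compared between fission yeast (Schizosaccharomyces pombe) lacking both mpn1 and rrp6, mpn1Δrrp6Δ, and yeast lacking mpn1 alone, mpn1Δ. The comparison used 2 of the 15 libraries of the series, chosen by their sample titles, with 1 library per genotype. Both strains lack mpn1, so as labelled the genotypes differ by the deletion of rrp6. For context, rrp6Δ was set against wt, and the endogenous U6 of 3 other strains without mpn1 was used: cid14Δmpn1Δ, mpn1Δ tU6wt and mpn1Δ tU6-C36A, of which the last pair carries a tagged U6 beside the endogenous gene. All of these libraries came from RNA treated with polynucleotide kinase (PNK), an enzyme that removes 3′ phosphates. Cells grew in YES medium at 30 °C with shaking at 150 rpm and were taken in logarithmic growth. Ends were read by 3′ RACE, in which an adapter is ligated to RNA 3′ ends and U6 is then amplified and sequenced. The labels give no other background of the strains, and they do not say whether more than 1 culture or clone of each strain was used. The files hold U6 reads alone, so the deletions themselves could not be checked in them.

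U6 is the spliceosomal RNA made by RNA polymerase III, which stops in a run of Ts and leaves a tail of Us on the transcript. Mpn1 is the fission yeast homolog of human USB1, a nuclease that trims this tail and modifies its last nucleotide. Rrp6 is a nuclease that works from the 3′ end as part of the nuclear exosome, which degrades and trims many nuclear RNAs, among them RNAs to which the TRAMP complex has added short A tails through its poly(A) polymerase Cid14. The comparison asks how the loss of Rrp6 bears on U6 ends once Mpn1 is gone.

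The end of the U6 gene, snu6, shows what the genome encodes and so which bases of an end were added or lost. The sequence is from RefSeq, build ASM294v3, chrI:2562256-2562304 on the minus strand, and capitals mark the encoded run of 9 Ts (2562266 to 2562274).
snu6 3′ end: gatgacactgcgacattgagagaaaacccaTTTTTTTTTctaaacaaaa
The annotated gene spans 2562276 to 2562419. After the T run the genome reads c, so an A that directly follows fewer than 9 Us is not encoded there. Below, an end is written as the file gives it, with T for U: small letters are the U run and capitals the tail after it. The 15 ends with at least 1% of the reads of either library held 94.6% of mpn1Δrrp6Δ reads and 95.5% of mpn1Δ reads, and all of them were Us alone or Us followed by 1 or 2 As. These 4 ends carry the main difference between the libraries:
4 Us and 1 A: ttttA
5 Us and 1 A: tttttA
6 Us and 1 A: ttttttA
7 Us and 1 A: tttttttA

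The mpn1Δrrp6Δ file held 756280 reads with an end sequence and the mpn1Δ file 1159254, within a range of 408281 to 3966962 over the 15 libraries (rrp6Δ 705616, wt 859009). The line with reads but no sequence held 0.973% of reads in mpn1Δrrp6Δ and 0.998% in mpn1Δ, against 2.20% in rrp6Δ and 3.22% in wt, and was left out of all shares. Intervals below are exact (Clopper-Pearson) 95% intervals. They cover counting error only, since the reads are PCR products without molecular identifiers. With 1 library per genotype no difference could be tested, no p-value was made, and "higher" and "lower" describe these libraries. A share was held to differ in size only at 5 points and 1.5 times or more, and a mean U run at 0.5 nt.

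The classes of ends were almost as common in one library as in the other. Ends with Us followed by As alone, called A-tailed, held 75.8% of reads in mpn1Δrrp6Δ (interval 75.7 to 75.9) and 76.5% in mpn1Δ (76.4 to 76.5). Plain ends, made of Us alone, held 20.1% in mpn1Δrrp6Δ (20.04 to 20.2) and 20.3% in mpn1Δ (20.2 to 20.4). Both differences were under the size limit. The rarer classes held more of the reads of mpn1Δrrp6Δ: mixed tails of 1 to 9 nt holding a base other than A had 2.89% of its reads and 2.40% of mpn1Δ reads. Tails of 10 nt or more had 0.825% in mpn1Δrrp6Δ and 0.630% in mpn1Δ. Ends that start with no U at all had 0.376% in mpn1Δrrp6Δ and 0.190% in mpn1Δ. Of these 3 classes the ends without a U differed most, at 1.98 times, the long tails by 1.31 times and the mixed tails by 1.20 times. The mixed and long shares of mpn1Δrrp6Δ lay inside the range of the 4 libraries that lack mpn1 and keep rrp6, 1.86% to 3.36% for mixed and 0.587% to 2.62% for long tails. For long tails the higher values came from the tagged strains, mpn1Δ tU6wt (2.62%) and mpn1Δ tU6-C36A (1.31%). The mpn1Δrrp6Δ share was above those of both untagged libraries, mpn1Δ and cid14Δmpn1Δ (0.587%). Among ends with at least 10 reads the long-tail difference changed sign, to -0.0746 points, and with every distinct end counted once, where it had at least 2 reads, both changed sign, to -1.63 points for mixed and -1.16 points for long tails. Encoded readthrough, at least 8 Ts followed by the downstream genome, was seen in 6 reads of mpn1Δrrp6Δ and 18 reads of mpn1Δ.

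The U runs under the A tails were shorter in mpn1Δrrp6Δ. Among A-tailed reads, 4 Us held 18.6% in mpn1Δrrp6Δ (interval 18.5 to 18.7) and 12.3% in mpn1Δ (12.2 to 12.3), which is 1.52 times the mpn1Δ share and past the size limit. The run of 5 Us, the commonest in both libraries, held 56.5% in mpn1Δrrp6Δ and 50.1% in mpn1Δ, a difference of 6.44 points at only 1.13 times. Runs of 6 Us held 20.9% in mpn1Δrrp6Δ (20.8 to 21.0) and 32.4% in mpn1Δ (32.3 to 32.5), which is 0.643 times the mpn1Δ share and past the limit. So the A-tailed reads of mpn1Δrrp6Δ lay more at 4 and 5 Us and less at 6 Us. The same order held on either side of these runs: 3 Us had 1.59% in mpn1Δrrp6Δ and 1.10% in mpn1Δ, while 7 Us had 1.97% in mpn1Δrrp6Δ and 3.68% in mpn1Δ. Together, runs of 6 or more Us made up 23.0% of A-tailed reads in mpn1Δrrp6Δ and 36.3% in mpn1Δ. The mean U run of A-tailed ends was 5.03 nt in mpn1Δrrp6Δ and 5.25 nt in mpn1Δ, a difference of -0.23 nt that was under the limit of 0.5 nt. The median was 0 nt apart.

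Plain ends were shifted the same way, by less. Runs of 6 Us held 24.4% of plain reads in mpn1Δrrp6Δ (interval 24.2 to 24.7) and 31.5% in mpn1Δ (31.3 to 31.7). Runs of 4 Us held 14.2% in mpn1Δrrp6Δ and 10.5% in mpn1Δ, and runs of 5 Us 30.9% in mpn1Δrrp6Δ and 27.1% in mpn1Δ. No plain run passed the size limit, and the mean was 4.41 nt in mpn1Δrrp6Δ and 4.61 nt in mpn1Δ. The shortest plain runs hardly differed: 1 U had 9.71% in mpn1Δrrp6Δ and 9.75% in mpn1Δ, and 2 Us had 8.14% in mpn1Δrrp6Δ and 7.70% in mpn1Δ. Plain ends thus had a second group of short runs, of 1 to 3 Us, with 25.8% of plain reads in mpn1Δrrp6Δ and 24.01% in mpn1Δ, which was rare among A-tailed ends, at 1.85% in mpn1Δrrp6Δ and 1.30% in mpn1Δ.

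**Figure D1:**
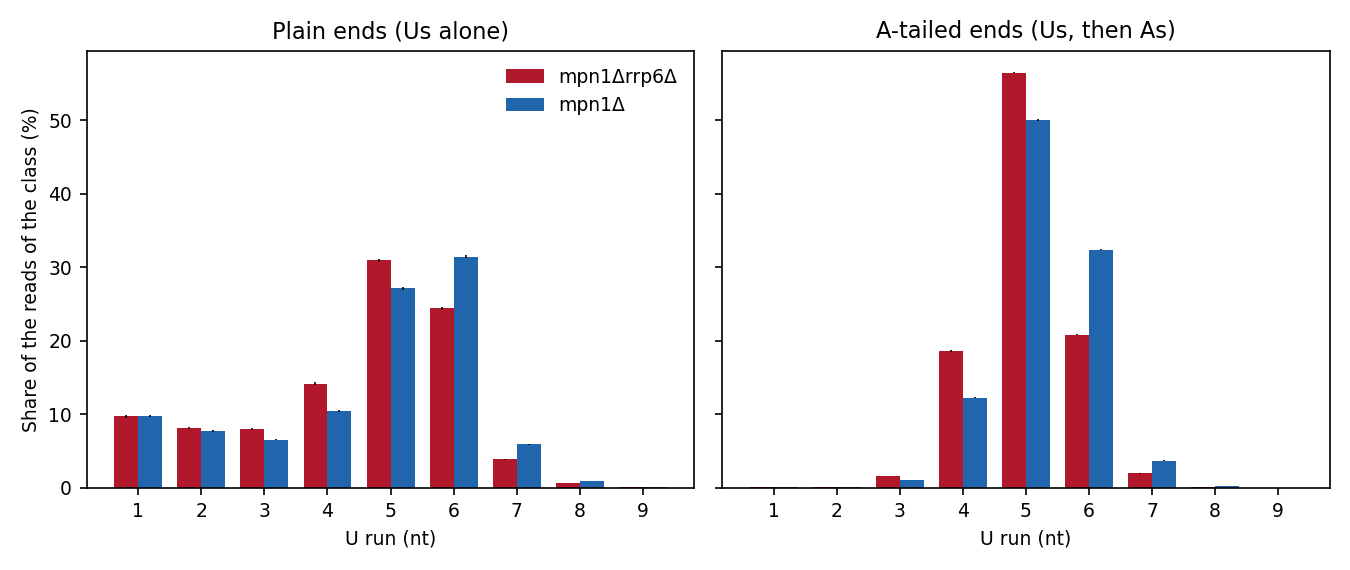
Share of plain reads (left) and of A-tailed reads (right), in percent, by the length of the U run in nt, with exact 95% intervals (counting error only) for mpn1Δrrp6Δ (red) and mpn1Δ (blue), 1 library each. In both panels the red bars are higher at 4 and 5 Us and lower at 6 and 7 Us, and among A-tailed reads 6 Us held 20.9% in mpn1Δrrp6Δ and 32.4% in mpn1Δ.

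How much strains without mpn1 differ among themselves gives a scale for this shift. The mean U run of A-tailed ends was 5.03 nt in mpn1Δrrp6Δ and lay between 5.06 nt (cid14Δmpn1Δ) and 5.38 nt (mpn1Δ tU6wt) in the 4 libraries that lack mpn1 and keep rrp6. The mpn1Δrrp6Δ mean was below that range by less than the range is wide. The mean of plain ends, 4.41 nt in mpn1Δrrp6Δ, was inside the range of the 4, which was 3.98 to 5.53 nt. Moving mpn1Δrrp6Δ to the A-tailed U runs of mpn1Δ would need 13.3% of its A-tailed reads placed at another run, but only 1.86% for those of cid14Δmpn1Δ and 2.59% for those of rrp6Δ. The same measure between mpn1Δ and cid14Δmpn1Δ was 11.5%, between mpn1Δ and mpn1Δ tU6wt 4.91%, and between mpn1Δ and mpn1Δ tU6-C36A 7.28%. The A-tailed profile of mpn1Δrrp6Δ was therefore nearer to those of cid14Δmpn1Δ and rrp6Δ than to that of mpn1Δ, and a strain that keeps rrp6, cid14Δmpn1Δ, stood almost as far from mpn1Δ as mpn1Δrrp6Δ did. In plain ends it was not so: mpn1Δrrp6Δ differed from mpn1Δ by 9.41%, from cid14Δmpn1Δ by 11.2% and from rrp6Δ by 18.3%. The endogenous files of the tagged strains list few ends of 4 nt. The A-tailed mean of mpn1Δrrp6Δ minus the mean over all 4 libraries was -0.23 nt, and -0.13 nt without the tagged strains.

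With mpn1 present, the direction for A-tailed ends was the opposite. Their mean U run was 4.99 nt in rrp6Δ and 4.60 nt in wt, a difference of 0.39 nt. Runs of 5 Us held 54.0% of A-tailed reads in rrp6Δ and 30.7% in wt, and runs of 4 Us held 20.7% in rrp6Δ and 37.1% in wt. The A-tailed ends of wt, which made up only 4.55% of its reads, were thus the shortest of the 4 libraries, those of mpn1Δ the longest, and both libraries without rrp6 lay between them. For plain ends the mean was 4.50 nt in rrp6Δ and 4.53 nt in wt.

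Single ends, counted from the same reads, show this pattern by sequence and are not separate support for it. The commonest end of both libraries, tttttA, held 39.4% of reads in mpn1Δrrp6Δ and 35.1% in mpn1Δ (1.12 times), and ttttA held 12.6% in mpn1Δrrp6Δ and 8.36% in mpn1Δ (1.504 times). The end ttttttA held 14.7% in mpn1Δrrp6Δ and 23.1% in mpn1Δ (0.637 times), and tttttttA held 1.41% in mpn1Δrrp6Δ and 2.67% in mpn1Δ (0.527 times). Shorter and longer runs broke the order, with tttA at 1.42 times and ttttttttA at 0.661 times. So did tA at 0.979 and ttA at 0.960 times, both named after their values were seen. Only from 4 to 7 Us did 1 more U before the single A go with a lower fold at each step. Ends with 2 As did the same: ttttAA stood at 1.46 times (1.36% of mpn1Δrrp6Δ reads, 0.926% of mpn1Δ reads), tttttAA at 1.04 times (3.07% of mpn1Δrrp6Δ reads, 2.96% of mpn1Δ reads) and ttttttAA at 0.647 times (1.03% of mpn1Δrrp6Δ reads, 1.59% of mpn1Δ reads). Among plain ends, tttt stood at 1.34 times, ttttt at 1.13, tttttt at 0.770 and ttttttt at 0.645, while t and tt stood at 0.987 and 1.05.

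Across all 116 ends with at least 100 reads over both libraries, 33 (28.4%) were at least 1.5 times higher in mpn1Δrrp6Δ and 19 (16.4%) at least 1.5 times lower, with a median of 1.14 times. Among the 35 ends with at least 1000 reads, which held 96.8% of mpn1Δrrp6Δ reads and 97.6% of mpn1Δ reads, the balance turned to 4 higher and 8 lower. The length of the U run sorted them. Of 35 ends with 6 or more Us, 0 were higher and 17 lower (median 0.674 times), and of 20 ends with 4 Us, 13 were higher and 0 lower (median 1.67 times). Ends with 5 Us lay between, with 4 of 28 higher and 2 lower (median 1.14 times). Both lower ends with 5 Us were long tails, as were 3 of the 17 lower ends with 6 or more Us. In all, 5 of 6 long ends were lower. Ends with 1 to 3 Us had 10 of 25 higher and 0 lower, and ends with no U 6 of 8 higher and 0 lower. Most A-tailed ends and most ends holding C or G were higher at 4 Us, at 4 of 5 and 9 of 10. With 6 or more Us, 7 of 9 A-tailed ends and 4 of 16 ends holding C or G were lower. As whole classes, A-tailed ends stood at 0.991 times and ends holding C or G at 1.24 times. No plain end was 1.5 times higher, and the end ttttttt alone among the 9 plain ends was lower. Shares of a library add to the whole, so higher shares at short runs and lower shares at long runs are not independent of each other. The end ttttA lies just past the fold of 1.5, at 1.504 times.

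**Figure D2:**
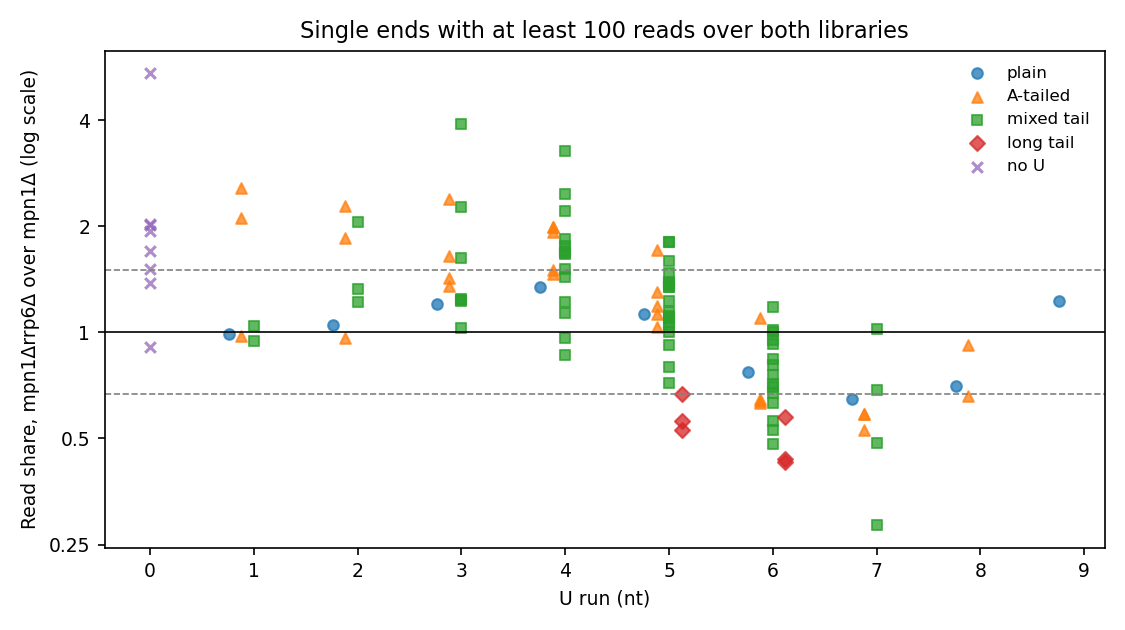
Each point is 1 of the 116 ends with at least 100 reads over both libraries, placed by the U run in nt (points of different classes are set slightly apart) and by its read share in mpn1Δrrp6Δ over that in mpn1Δ (log scale); dashed lines mark 1.5 times higher and lower. Ends with 4 Us lie mostly above the solid line of equal shares and ends with 6 or more Us mostly below it, with medians of 1.67 and 0.674 times.

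How often a U run carried an A tail depended on its length in the same way in both libraries. Of reads with 5 Us that were plain or A-tailed, 87.3% had an A tail in mpn1Δrrp6Δ and 87.4% in mpn1Δ, the highest value of the runs of 1 to 8 Us in both. Reads with 4 Us had a tail in 83.2% in mpn1Δrrp6Δ and 81.5% in mpn1Δ, and reads with 3 Us in 42.8% in mpn1Δrrp6Δ and 38.7% in mpn1Δ. With 2 Us and with 1 U tails were rare, at 6.55% and 4.204% in mpn1Δrrp6Δ, against 5.95% and 2.83% in mpn1Δ. The share of tailed reads was therefore higher in mpn1Δrrp6Δ at each run of 4 Us or fewer. On the long side it was lower: 76.3% of reads with 6 Us were tailed in mpn1Δrrp6Δ and 79.5% in mpn1Δ, and 65.8% of reads with 7 Us in mpn1Δrrp6Δ and 70.0% in mpn1Δ. At 8 Us the values were 45.4% in mpn1Δrrp6Δ and 46.4% in mpn1Δ, with overlapping intervals. None of these differences reached 5 points. Over plain and A-tailed reads with 1 to 8 Us, 79.02% were tailed in mpn1Δrrp6Δ and 79.02% in mpn1Δ. With the U runs of mpn1Δ given to both libraries the values were 78.1% in mpn1Δrrp6Δ and 79.02% in mpn1Δ, a difference of -0.947 points.

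Most A tails were a single A in both libraries, but the longest tails were more frequent in mpn1Δrrp6Δ. The mean tail was 1.10 nt in mpn1Δrrp6Δ and 1.09 nt in mpn1Δ, and tails of 2 or more As made up 8.46% of A-tailed reads in mpn1Δrrp6Δ (interval 8.39 to 8.54) and 8.22% in mpn1Δ (8.16 to 8.28). Tails of 3 or more As had 0.977% in mpn1Δrrp6Δ and 0.747% in mpn1Δ (1.31 times). Tails of 4 or more had 0.255% in mpn1Δrrp6Δ (0.242 to 0.268) and 0.145% in mpn1Δ (0.137 to 0.153), 1.76 times. The fold was 2.18 for 5 or more As, and 5.45 for 8 or more As, which were 67 reads of mpn1Δrrp6Δ and 19 reads of mpn1Δ. Tails of 10 or more As were 14 reads of mpn1Δrrp6Δ (0.00244% of A-tailed reads) and 6 reads of mpn1Δ (0.000677%). These long A tails are far under 1% of A-tailed reads. In the other strains without mpn1, all with rrp6, tails of 4 or more As had 0.0181% of A-tailed reads in cid14Δmpn1Δ, 0.0264% in mpn1Δ tU6-C36A and 0.409% in mpn1Δ tU6wt. The mpn1Δrrp6Δ share thus lay inside the range of strains that keep rrp6, and in mpn1Δ tU6wt 94.9% of these reads had a run of 3 Us. With mpn1 present their share was 0.286% in rrp6Δ and 1.45% in wt, the opposite direction. Of all reads, however, they made up 0.193% in mpn1Δrrp6Δ and 0.111% in mpn1Δ, and 0.112% in rrp6Δ and 0.0660% in wt, which is higher without rrp6 in both pairs.

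**Figure D3:**
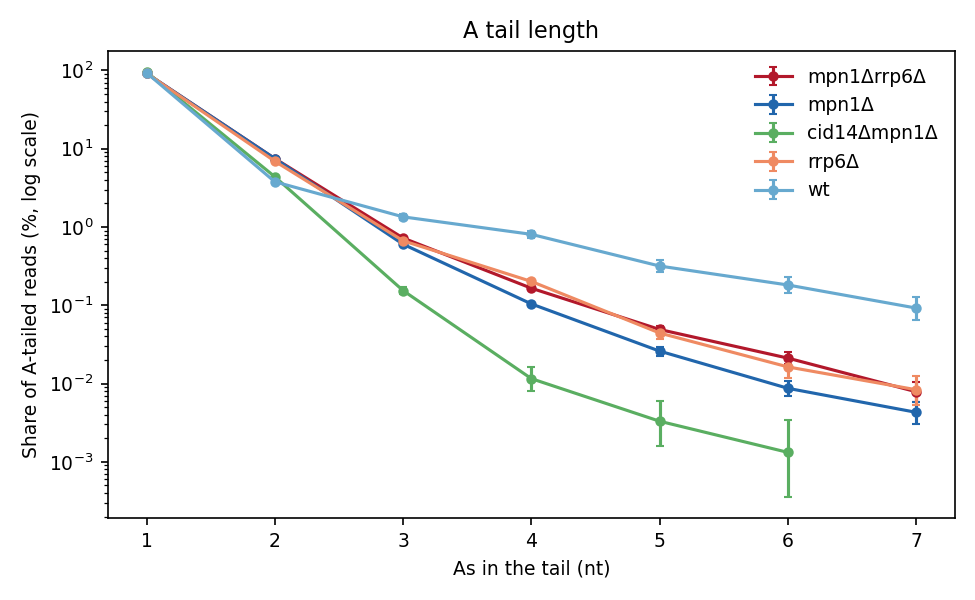
Share of A-tailed reads (percent, log scale) by the number of As in the tail, with exact 95% intervals, for mpn1Δrrp6Δ (red), mpn1Δ (blue), cid14Δmpn1Δ (green), rrp6Δ (orange) and wt (light blue), 1 library each; a length with no reads has no point. The red and blue lines lie together at 1 and 2 As and part from 3 As on, with mpn1Δrrp6Δ above mpn1Δ.

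The length of the A tail depended on the U run before it, and the libraries parted at the shortest runs. After 1 U, 53.5% of A-tailed reads had 2 or more As in mpn1Δrrp6Δ (interval 49.5 to 57.4, 649 reads) and 29.4% in mpn1Δ (25.98 to 33.0, 670 reads). After 2 Us it was 29.9% in mpn1Δrrp6Δ (26.9 to 33.1, 869 reads) and 15.2% in mpn1Δ (13.2 to 17.4, 1146 reads). Both differences were past the size limit. With mpn1 present, the shares after 1 U were 38.4% in rrp6Δ and 32.8% in wt, and after 2 Us 20.8% in rrp6Δ and 20.6% in wt. In cid14Δmpn1Δ, which keeps rrp6, they were 1.68% after 1 U and 3.21% after 2 Us. The tagged strains without mpn1 had fewer than 100 A-tailed reads at each of these runs. After 3 Us the shares were 12.7% in mpn1Δrrp6Δ and 12.3% in mpn1Δ, and after 4 Us both stood at 10.9%. After 5 Us the order was turned, with 7.98% in mpn1Δrrp6Δ (7.89 to 8.08) and 8.47% in mpn1Δ (8.39 to 8.55). The mean A tail after 1 U was 2.52 nt in mpn1Δrrp6Δ and 1.77 nt in mpn1Δ, and after 2 Us 1.74 nt in mpn1Δrrp6Δ and 1.33 nt in mpn1Δ. From 3 to 7 Us the means were within 0.027 nt of each other. The ends tAA and ttAA, named here after their values were seen, stood at 2.56 and 2.28 times the mpn1Δ share. Tails of 4 or more As were higher in mpn1Δrrp6Δ after each run of 1 to 6 Us. After 1 U they made up 27.6% of A-tailed reads in mpn1Δrrp6Δ and 15.7% in mpn1Δ. After 2 Us it was 10.9% in mpn1Δrrp6Δ and 4.36% in mpn1Δ. The shares were 0.334% in mpn1Δrrp6Δ and 0.25% in mpn1Δ after 4 Us, and 0.119% in mpn1Δrrp6Δ and 0.0595% in mpn1Δ after 6 Us. After 7 Us they were lower, with 0.0354% in mpn1Δrrp6Δ (4 reads) and 0.0643% in mpn1Δ (21 reads). The intervals overlapped there.

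**Figure D4:**
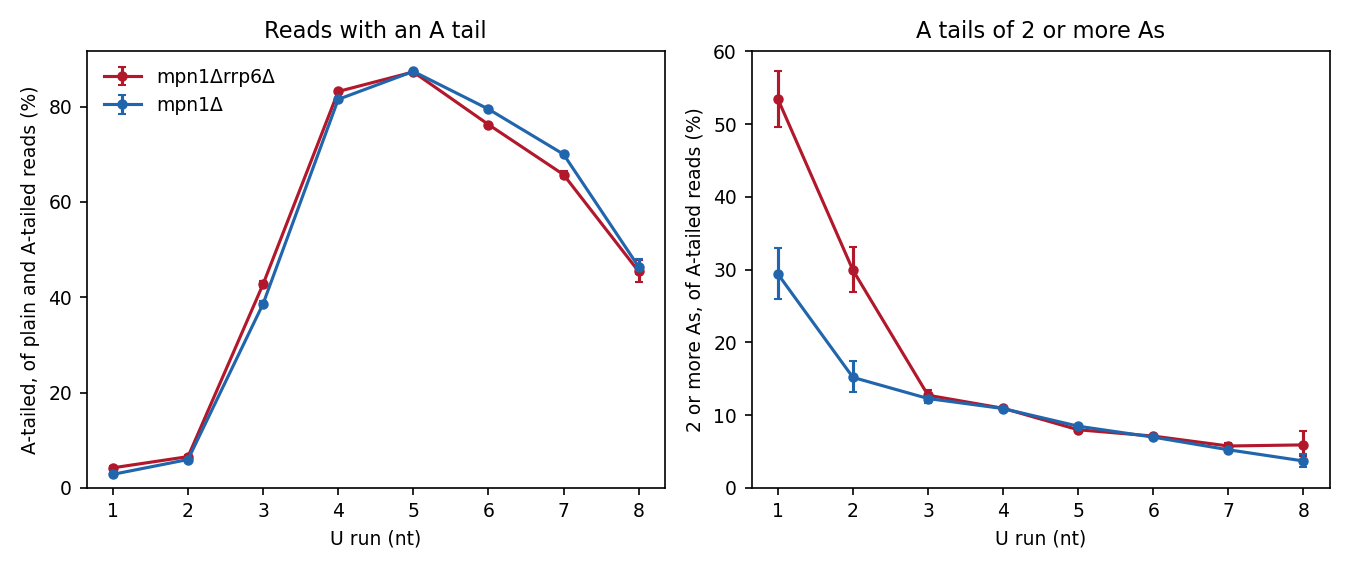
Left, the share of plain and A-tailed reads that carry an A tail; right, the share of A-tailed reads with 2 or more As; both in percent by U run in nt, with exact 95% intervals, for mpn1Δrrp6Δ (red) and mpn1Δ (blue), 1 library each. Tailing peaks at 5 Us in both libraries, and the right panel parts most in points at 1 and 2 Us, where tails of 2 or more As had 53.5% and 29.9% in mpn1Δrrp6Δ, against 29.4% and 15.2% in mpn1Δ.

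In ends with no U, every U is gone or the read differs from the U run at its first base. They are given first as shares of all reads. Ends of As alone had 0.143% of reads in mpn1Δrrp6Δ and 0.0808% in mpn1Δ (1.76 times), those of 2 or more As 0.0706% in mpn1Δrrp6Δ and 0.0331% in mpn1Δ (2.13 times), and those of 4 or more As 0.0299% in mpn1Δrrp6Δ and 0.0120% in mpn1Δ (2.49 times). Of ends of As alone, 49.5% had 2 or more As in mpn1Δrrp6Δ and 41.0% in mpn1Δ, which is 1.21 times. The same measure gave 1.82 times after 1 U and 1.97 times after 2 Us. By exact length there was no steady order in shares of all reads. A stood at 1.51, AA at 2.03 and AAA at 1.70 times (AA and AAA named after their values were seen). In the gene an A lies before the T run, so a first A in such an end may be encoded. Among ends with at least 100 reads over both libraries, the largest fold of all, 5.43, belonged to AT (85 reads of mpn1Δrrp6Δ, 24 of mpn1Δ), named after its value was seen. Ends without a U had 0.514% of reads in rrp6Δ and 0.393% in wt, and the wt share was above the 0.376% of mpn1Δrrp6Δ. The other strains that lack mpn1 and keep rrp6 were below mpn1Δrrp6Δ. They had 0.244% in cid14Δmpn1Δ, 0.0825% in mpn1Δ tU6wt and 0.0317% in mpn1Δ tU6-C36A.

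Mixed tails mostly started with an A, at 60.6% of them in mpn1Δrrp6Δ and 61.6% in mpn1Δ. The commonest was ACA, with 0.427% of all reads in mpn1Δrrp6Δ and 0.318% in mpn1Δ (1.34 times), followed by G with 0.335% in mpn1Δrrp6Δ and 0.304% in mpn1Δ, and AC with 0.292% in mpn1Δrrp6Δ and 0.256% in mpn1Δ. With mpn1 present, ACA had 0.226% of reads in rrp6Δ and 0.0198% in wt. GA had 0.151% in mpn1Δrrp6Δ and 0.0895% in mpn1Δ, 1.69 times. The ligated adapter starts with a C per the labels, so whether a C in such a tail belongs to U6 is not known from these files. The 3 commonest mixed ends in both libraries were tttttACA, tttttG and tttttAC, at 1.36, 1.38 and 1.35 times. With 1 U fewer ttttACA stood at 2.21 times, and with 1 U more ttttttAC stood at 0.629 and ttttttG at 0.674 times. The end ttttttACA, named after its value was seen, stood at 1.02 times. With 6 or more Us, 4 of 16 mixed ends holding C or G were lower, against 7 of 9 A-tailed ends. These folds are of shares of all reads. As whole classes, ends holding C or G stood at 1.24 times and A-tailed ends at 0.991 times. The counts therefore do not show which class followed the U run more closely. The mean U run of ends holding C or G was also shorter, with 4.72 nt in mpn1Δrrp6Δ and 4.98 nt in mpn1Δ.

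Tails in which As are followed by Us were the 1 mixed kind that was lower in mpn1Δrrp6Δ, with 0.310% of reads (interval 0.298 to 0.323) against 0.335% in mpn1Δ (0.324 to 0.345). The commonest tail of this kind, AT, had 0.101% in mpn1Δrrp6Δ and 0.138% in mpn1Δ (0.730 times). The difference again ran along the U run, with ttttttAT at 0.528 times and ttATT at 2.06 times, both named after their values were seen. A U run of 3 or fewer before the As was found in 32.3% of these reads in mpn1Δrrp6Δ and 18.95% in mpn1Δ, and their mean U run was 3.90 nt in mpn1Δrrp6Δ and 4.46 nt in mpn1Δ, a difference past the limit of 0.5 nt. In most of them 1 U followed the As, at 59.6% in mpn1Δrrp6Δ and 64.3% in mpn1Δ.

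Long tails, of 10 nt or more, were mainly pieces of other RNAs or sequence without a match. The median length was 19 nt in both libraries. Tails matching ribosomal RNA had 0.252% of reads in mpn1Δrrp6Δ and 0.265% in mpn1Δ, and tails matching tRNA 0.0436% in mpn1Δrrp6Δ and 0.0314% in mpn1Δ (1.39 times). Tails with no match of 16 nt in the genome had 0.462% in mpn1Δrrp6Δ and 0.300% in mpn1Δ (1.54 times). Tails shorter than 16 nt could not reach that match length, so for them the lack of a match says nothing of their origin. Tails matching protein-coding genes were 100 reads of mpn1Δrrp6Δ and 46 reads of mpn1Δ, 3.33 times as a share, and A-rich tails (at least 80% A, with another base) were 71 reads of mpn1Δrrp6Δ and 43 of mpn1Δ, 2.53 times. Adapter or primer sequence in the tail was also more frequent in mpn1Δrrp6Δ, at 0.0311% of reads against 0.0148% in mpn1Δ, and its part in the other differences was not tested.

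Tails that end at a common base of 18S went the other way. In both libraries many long tails ended at the same base of 18S ribosomal RNA, chrIII:2441385 on the plus strand in ASM294v3, which is base 392 of the 1842-nt gene; the genome holds 5 exact copies of the last 20 nt of the stretch. They made up 10.5% of long tails in mpn1Δrrp6Δ (interval 9.75 to 11.3) and 23.8% in mpn1Δ (22.9 to 24.8), or 0.0866% of all reads in mpn1Δrrp6Δ and 0.150% in mpn1Δ (0.576 times). With mpn1 present they had 0.0911% of reads in rrp6Δ and 0.161% in wt (0.564 times). Strains that keep rrp6 could be lower still: cid14Δmpn1Δ had 0.0355% of reads, and the endogenous files of both tagged strains without mpn1 had 0 such reads, which allows up to 0.000735% of reads in mpn1Δ tU6wt and 0.000504% in mpn1Δ tU6-C36A (3 reads). Without these tails, long tails had 0.738% of reads in mpn1Δrrp6Δ and 0.480% in mpn1Δ (1.54 times). Reads with this junction are shown because they join a U6 end to a fixed piece of 18S, with or without an A between them. Small letters are the U run and capitals what follows, and the 18S part of the first pair is chrIII:2441361-2441385.
U6 with 1 A before 18S: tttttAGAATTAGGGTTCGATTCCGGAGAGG
U6 with no A before 18S: tttttGAATTAGGGTTCGATTCCGGAGAGG
shorter 18S stretch: tttttAGGGTTCGATTCCGGAGAGG
The first had 59 reads of mpn1Δrrp6Δ and 161 of mpn1Δ, the second 21 of mpn1Δrrp6Δ and 36 of mpn1Δ, and the third 112 of mpn1Δrrp6Δ and 257 of mpn1Δ. In the first pair the 18S gene has no A in front of the stretch, so an A there is not of 18S, whereas in the third the A can be its own. Of junctions with the longer stretch, 71.8% had an A between U6 and 18S in mpn1Δrrp6Δ (interval 65.1 to 77.8, 209 reads) and 75.05% in mpn1Δ (71.1 to 78.7, 521 reads). The share was 33.7% in rrp6Δ (190 reads) and 2.01% in wt (497 reads). A-tailed ends made up 75.8% of all reads in mpn1Δrrp6Δ, 76.5% in mpn1Δ, 39.1% in rrp6Δ and 4.55% in wt. These shares also count mixed, long and other ends, so they are not on the same base as the junction share. Of plain and A-tailed reads with 1 to 8 Us, 79.02% were tailed in mpn1Δrrp6Δ and 79.02% in mpn1Δ, above the junction interval of each library. In wt even the share of all reads lay above the junction interval (0.969 to 3.67).

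**Figure D5:**
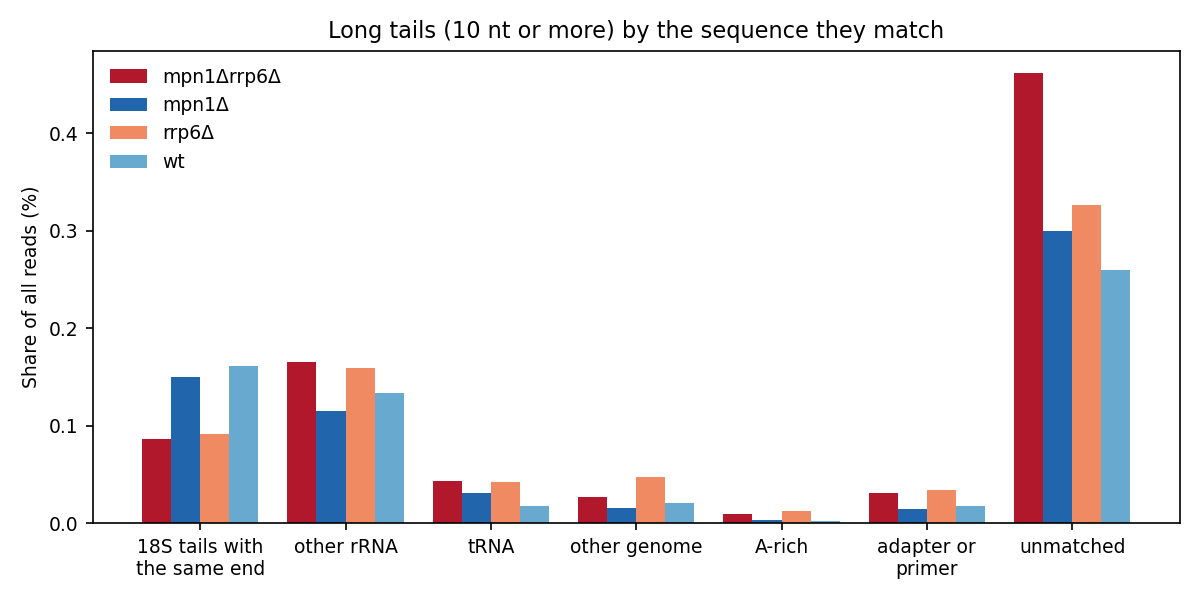
Share of all reads (percent) with a tail of 10 nt or more, by the sequence the tail matches, for mpn1Δrrp6Δ (red), mpn1Δ (blue), rrp6Δ (orange) and wt (light blue), 1 library each, with no error bars. Tails that end at the common 18S base are lower in the libraries without rrp6 than in the paired ones plotted, at 0.0866% in mpn1Δrrp6Δ and 0.150% in mpn1Δ, while unmatched tails are higher, at 0.462% in mpn1Δrrp6Δ and 0.300% in mpn1Δ.

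The variety of ends was larger in mpn1Δrrp6Δ despite fewer reads. It held 4776 distinct ends, against 4488 in mpn1Δ and 3614.9 expected in mpn1Δ at the depth of mpn1Δrrp6Δ. Together the libraries held 8154 distinct ends, of which 1110 were found in both, and ends seen once were 49.1% of those of mpn1Δrrp6Δ and 47.7% of those of mpn1Δ.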

How the data were processed

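The deposited files list counts, 1 line per end with its number of reads and its sequence, and the authors left them unnormalized as far as the values show. Per the labels' protocols, 3 µg of PNK-treated RNA were ligated to 120 pmol of adapter, and 1 µg was reverse-transcribed. Per the submitters' processing notes, cutadapt and CASAVA 1.8.2 were used, with no role stated. The genome build, read filters and trimming settings were not given in the sources used here. Ligation and PCR can favour some ends, so shares describe sequenced products.

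Groups came from sample titles. Ends were sorted into the classes given with the results and expressed as shares of reads with an end sequence. No test was made, since each genotype had 1 library. Counts of 0 allowed a share of up to 0.000397% in mpn1Δrrp6Δ and 0.000259% in mpn1Δ (3 reads). Long tails were matched exactly to ASM294v3, allowing 2 nt before a match of at least 16 nt. Named ends had at least 1% of either library, were among the 10 largest rises or falls in share, had one of the 5 largest folds each way among ends with at least 1000 reads, or were among the 3 commonest mixed or long ends of a library. Members and lists were chosen with earlier results of these data known. Alternatives changed the read minimum, the weight of an end, the line without sequence, end lengths, ends with an N, the median, U runs, tail lengths and fold. The computation was tested on simulated data. Tools were Matplotlib 3.10.9, SciPy 1.17.1, NumPy 2.4.6 and Python 3.11.15.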

Additional observations from a re-analysis of the deposited data

Results flagged for a closer look

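Some values differed in opposite directions in mpn1Δrrp6Δ against mpn1Δ and in rrp6Δ against wt. The mean U run of A-tailed ends differed by -0.23 nt between mpn1Δrrp6Δ and mpn1Δ, and by 0.39 nt between rrp6Δ and wt. The read share of ttttttA was 0.637 times that of mpn1Δ in mpn1Δrrp6Δ, and 9.53 times that of wt in rrp6Δ. For tttttttA these folds were 0.527 and 5.004, and for ttttttAA 0.647 and 16.6. These are shares of all reads, and all A-tailed ends together stood at 0.991 times in mpn1Δrrp6Δ over mpn1Δ and 8.59 times in rrp6Δ over wt. Among A-tailed reads alone, 7 Us were lower in both pairs, with 1.97% in mpn1Δrrp6Δ and 3.68% in mpn1Δ, and 1.94% in rrp6Δ and 3.27% in wt. With 1 library per genotype, the difference between the directions was not tested.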

How the results depend on the processing

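Of 65 alternative values, 30 kept their direction and size, 30 moved and 5 changed sign. The mean U run of A-tailed ends was lower in mpn1Δrrp6Δ under each alternative but the median, where the libraries were 0 nt apart.

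With ends of at least 10 reads the differences (mpn1Δrrp6Δ minus mpn1Δ, in points) were -0.333 for A-tailed ends, 0.355 for mixed tails, 0.140 for ends with no U and -0.0746 for long tails, which changed sign. Counting every distinct end once, where it had at least 2 reads, A-tailed ends changed sign to 0.246, mixed tails to -1.63 and long tails to -1.16. There plain ends stood at -0.0181, tails of 2 or more As at 3.90, those of 4 or more at 6.003 and ends with no U at 2.73. The mean U run then differed by 0 nt for plain and -0.13 nt for A-tailed ends, and the mean A tail by 0.65 nt. The cause was not tested. With U runs of 3 to 9 alone, A-tailed ends changed sign to 0.0652 and plain ends stood at -0.0652, as shares of both classes together. Their mean U run differed by -0.22 nt (plain), and the mean A tail by 0.00516 nt. After 3 or more Us, tails of 4 or more As differed by 0.0796. Without ends of 4 and 19 nt, A-tailed ends differed by -0.169, plain ends by -0.739 and the A-tailed mean U run by -0.22 nt. The line without sequence taken as 0 Us gave -0.18 nt for plain ends. The median U run differed by 0 nt in both classes. Long tails differed by 0.262 when counted from 6 nt, by 0.166 from 15 nt, and by 0.258 without the common 18S end. At the U runs of mpn1Δ, A-tailed ends differed by -0.947 among plain and A-tailed reads.

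Single ends higher and lower in mpn1Δrrp6Δ numbered 229 and 148 with at least 10 reads, 4 and 8 with at least 1000, and 13 and 5 at a fold of 2. The alternatives for tails of 4 or more As, ends with no U, the U runs of mpn1Δ, the 18S end and the tagged strains were chosen after seeing the data. No paired analysis was possible because each genotype had 1 library. Depth limits what can be said of tails of 8 or more As, with 67 reads in mpn1Δrrp6Δ and 19 in mpn1Δ, and of encoded readthrough, with 6 reads in mpn1Δrrp6Δ and 18 in mpn1Δ.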
